A study of Homo sapiens with 12 samples.

Results

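Heat shock chaperones are proteins that bind unfolded or misfolded proteins, keep them from clumping and help them refold. A set of 10 genes was followed here: HSPA1A, HSPA1B, HSPA8, DNAJB1, HSPH1, HSP90AA1, HSPD1, HSPE1, HSPB1 and CRYAB. They were picked by gene symbol alone, and each symbol matched 1 of the 40591 named lines among the 60605 lines of the deposited count table. All 10 were abundant enough to be tested, among 15179 genes that passed the filter on low counts.

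The counts come from poly(A) RNA sequencing of ARPE-19, an established human cell line from the retinal pigment epithelium (RPE). The 12 libraries form 4 groups of 3: WT, with no expressed reading frame named, and stable lines collected 4 days after the start of expression of GFP, GSTA4 or OSK. GFP is the control reading frame, GSTA4 encodes a glutathione S-transferase that detoxifies lipid aldehydes, and OSK stands for the reprogramming factors KLF4, SOX2 and POU5F1 (OCT4), as the 3 letters were taken here. Whether libraries of 1 group are separate cultures, whether a group is 1 stable line and how the reading frames were driven is not stated in the labels. The p-values therefore measure only the spread between these libraries, which may be technical, and an expressed reading frame cannot be told apart from other differences between the lines.

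The expressed genes followed the labels. GSTA4 averaged 416 CPM (read counts scaled to library size) in the GSTA4 group and 8.79 in the GFP group, and POU5F1 averaged 779 CPM in the OSK group and 0.22 in the GFP group. Named lines held from 12526826 to 16940870 reads per library, so 3 reads stand for 0.177 to 0.239 CPM. GFP replicate 1 stood apart with 27349 genes with reads. Of 15 RPE markers, 12 had a mean over 1 CPM, and their summed level ran from 2419 to 2659 CPM in WT cells, 2183 to 2524 with GFP, 1576 to 1649 with GSTA4, and 1401 to 1469 with OSK. KRT8 and KRT18 carried a large part of that sum, at 1246 and 432 CPM on average in WT cells and 841 and 313 with GFP. Most of the list ran against the sum in GFP against WT, where 9 of 12 tested markers were higher and 2 lower. RPE65, RGR and TTR, which mark mature RPE, were near 0. In bulk RNA, fewer cells of a type and less RNA per cell cannot be told apart.

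The heat shock response works through HSF1, a transcription factor that HSP70 and HSP90 proteins hold in check. When misfolded proteins occupy these chaperones, HSF1 forms trimers and binds heat shock elements, repeats of the unit GAA in alternating orientation, upstream of chaperone genes. HSP70 proteins need a J-domain partner to deliver substrates and an exchange factor to release nucleotide. In the retina, small heat shock proteins, CRYAB among them, are known as stress-protective proteins of the RPE.

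The upstream sequences show what these genes share beyond their names. RefSeq (GRCh38.p14) had an entry for 9 of the 10 genes, and 250 bases before each start were searched on both strands. At least 2 adjoining units, GAANNTTC or TTCNNGAA, were found in 7 of the 9, against 13.964% of 27305 genes. Runs of 3 units, GAANNTTCNNGAA or its reverse complement TTCNNGAANNTTC, overlap the shorter motifs by construction. They were found for HSPA8, HSP90AA1 and HSPD1, and in 0.557% of all genes. The stretches below hold elements of the 7 genes, with the elements in capitals, written 5′ to 3′ along the gene.
HSPA1A (chr6:31815423-31815542, plus strand): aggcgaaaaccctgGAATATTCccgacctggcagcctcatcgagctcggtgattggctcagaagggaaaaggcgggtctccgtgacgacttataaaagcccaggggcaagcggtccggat
HSPA1B (chr6:31827618-31827737, plus strand): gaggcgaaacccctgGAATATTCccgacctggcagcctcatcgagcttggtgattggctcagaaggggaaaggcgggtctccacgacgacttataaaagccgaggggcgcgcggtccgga
HSPA8 (chr11:123062137-123062256, minus strand): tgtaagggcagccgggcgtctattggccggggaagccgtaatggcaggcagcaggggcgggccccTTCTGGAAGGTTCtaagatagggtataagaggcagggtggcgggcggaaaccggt
DNAJB1 (chr19:14518398-14518517, minus strand): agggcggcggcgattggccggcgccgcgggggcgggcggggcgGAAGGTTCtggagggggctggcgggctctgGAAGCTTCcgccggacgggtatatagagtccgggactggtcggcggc
HSP90AA1 (chr14:102087045-102087164, minus strand): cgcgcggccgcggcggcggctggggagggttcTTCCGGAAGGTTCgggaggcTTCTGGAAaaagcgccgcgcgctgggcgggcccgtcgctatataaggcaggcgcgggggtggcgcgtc
HSPB1 (chr7:76302473-76302522, plus strand): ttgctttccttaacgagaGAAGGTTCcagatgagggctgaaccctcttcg
HSPD1 (chr2:197500041-197500090, minus strand): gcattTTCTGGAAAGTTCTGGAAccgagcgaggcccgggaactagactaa
The HSPA1A and HSPA1B stretches are nearly the same, with 1 element each of 2 units (GAATATTC) and a TATAAA further down. DNAJB1 carries 2 separate elements, HSP90AA1 has a run of 3 units followed by a run of 2, and HSPD1 has a run of 4. HSPA8 has a run of 3 units at -55 from its start and another at -230, outside the stretch shown. No match was found in the windows of HSPH1 and HSPE1, which says only that these letters are not in those 250 bases. The HSPD1 run lies between its own start and that of HSPE1, beyond the 250 bases searched for HSPE1. A match is a description of sequence, and binding was not measured here.

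**Figure D1:**
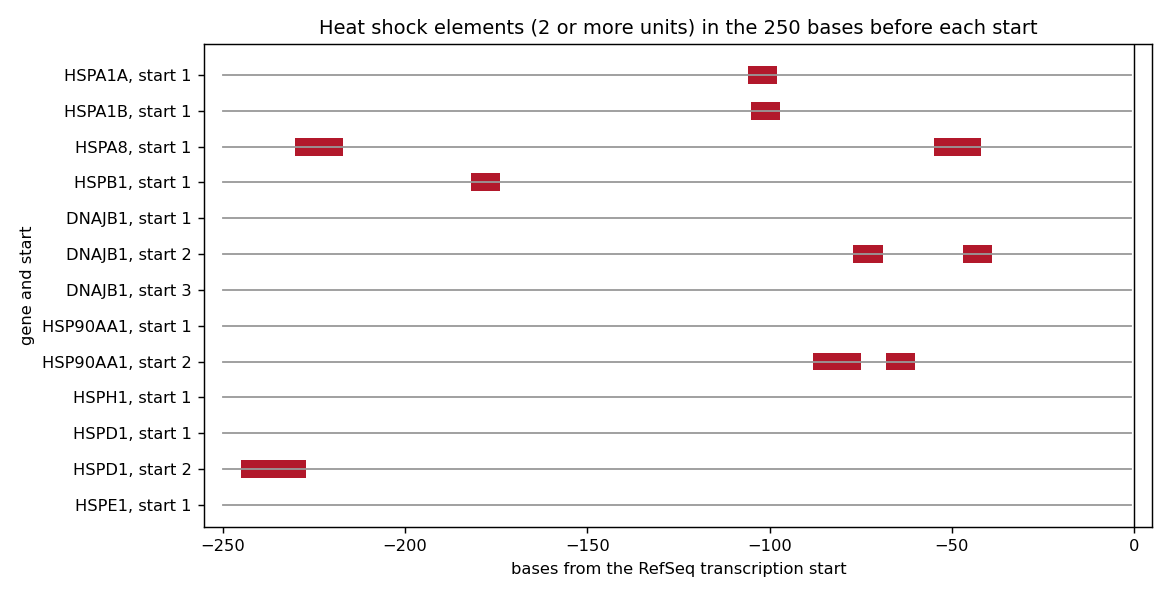
Heat shock elements in the 250 bases before each RefSeq start, with distance from the start in bases on the horizontal axis. Each of the 13 starts of the 9 genes has its own row. Marks stand for runs of adjoining units on either strand. The rows of HSPH1 and HSPE1 hold none, nor do those of DNAJB1 starts 1 and 3, HSP90AA1 start 1 and HSPD1 start 1.

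Levels differed widely between the chaperones. Per kilobase of exon (GENCODE v29 on GRCh38), CRYAB was the most abundant at 342 CPM per kilobase over the 12 libraries. HSPA8, the constitutive HSP70, had 166 and HSP90AA1, the inducible cytosolic HSP90, had 158 CPM per kilobase. HSPD1 and HSPB1 were at 62.1 and 61.8, DNAJB1 at 41.1, HSPA1B at 21.2, HSPA1A at 16, HSPH1 at 10.1 and HSPE1 at 7.75 CPM per kilobase. The lower ranks depend on the length used. Per kilobase of the longest coding transcript, a choice made after seeing the data, CRYAB, HSPA8 and HSP90AA1 still led at 928, 327 and 237. HSPB1 was then at 111 and HSPD1 at 107, and HSPH1, HSPE1 and HSPA1A lay close together at 16.2, 16.1 and 16. The inducible HSP70 pair was thus expressed at a fraction of the level of its constitutive relative in every group, though reads shared by the pair may have been lost in counting. HSPA6, an HSP70 gene known for strict stress induction, had 0 to 4 reads per library and 0 reads in 7 of 12.

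**Figure D2:**
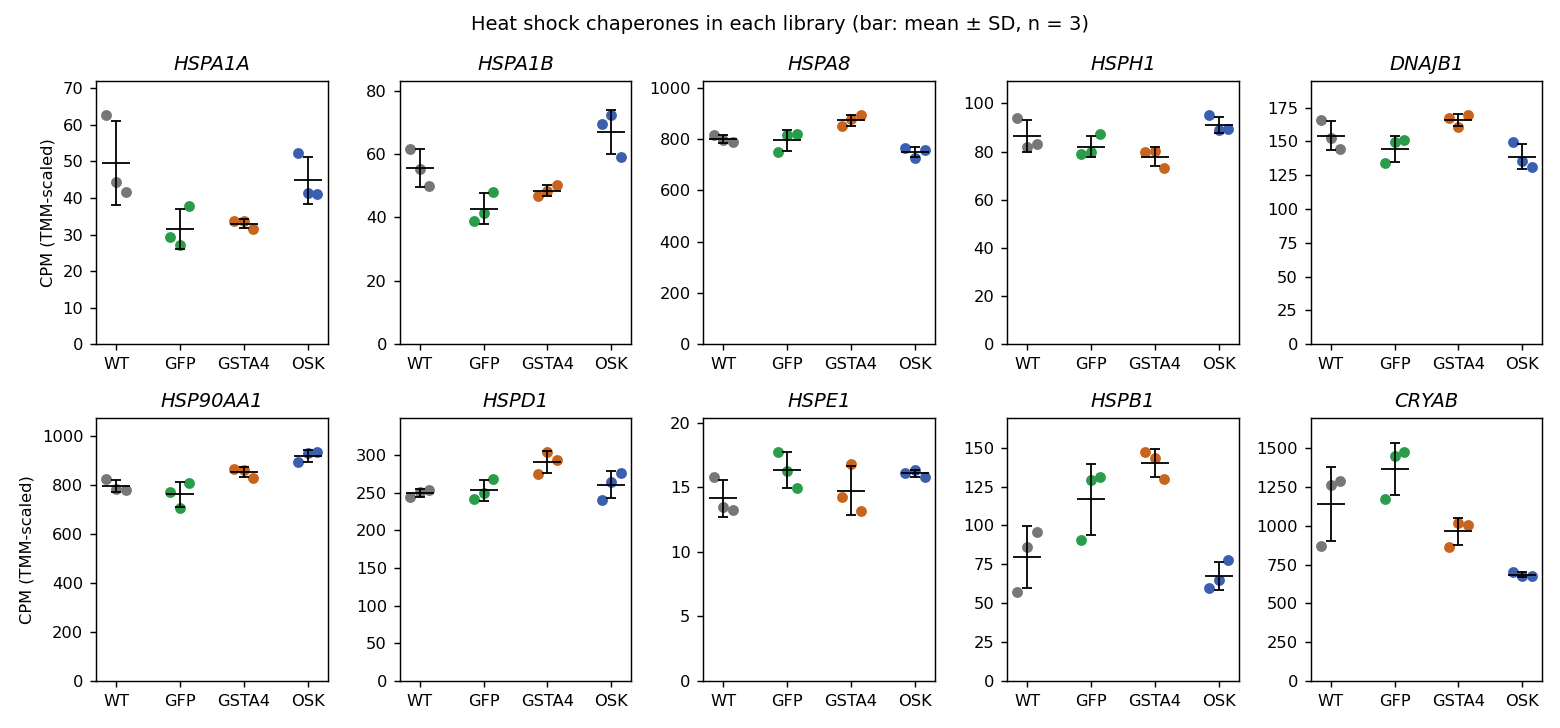
TMM-scaled CPM of each chaperone gene in the 12 libraries, 1 panel per gene, with points for libraries and the group mean and SD. The group means of CRYAB and HSPB1 are lowest in OSK, and those of HSPA1A and HSPA1B are lowest in GFP.

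Tests were made with edgeR's quasi-likelihood method, adjusted by Benjamini and Hochberg over all 15179 genes, and a gene was called at an adjusted p under 0.05. Levels of the genes described next are CPM after TMM scaling, given for replicates 1, 2 and 3 in turn, and differences are log2 fold changes with their standard errors (SE).

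HSPA1A and HSPA1B encode nearly identical stress-inducible HSP70 proteins from neighbouring single-exon genes on chromosome 6 (chr6:31815464-31817946 and chr6:31827735-31830255). HSPA1A had 62.6, 44.4 and 41.7 CPM in WT cells, 29.4, 27.2 and 37.8 with GFP, 33.7, 33.8 and 31.5 with GSTA4, and 52.2, 41.4 and 40.9 with OSK. WT and OSK overlapped, GFP and GSTA4 overlapped, and every library of the first pair of groups lay above every library of the second. HSPA1A was higher in OSK than in GFP by 0.51 (SE 0.14, adjusted p 0.00512) and higher than in GSTA4 by 0.44 (adjusted p 0.0116). It was lower than in WT by -0.65 in GFP (adjusted p 0.00205) and by -0.59 in GSTA4 (adjusted p 0.00187), where the difference was -0.38 without WT replicate 1. The call against GSTA4 was lost without OSK replicate 1, at 0.34 and an adjusted p of 0.0765.

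HSPA1B had 61.7, 55.1 and 49.8 CPM in WT cells, 38.9, 41.4 and 48.1 with GFP, 46.8, 48.2 and 50.2 with GSTA4, and 69.4, 72.2 and 59.0 with OSK. OSK lay above GFP and GSTA4 in every library but overlapped WT. The difference was 0.64 against GFP (SE 0.09, adjusted p 1.15e-05), 0.47 against GSTA4 (adjusted p 0.000317) and 0.27 against WT (adjusted p 0.0223). That last call was lost without WT replicate 2 (adjusted p 0.0551), WT replicate 3 (0.127), OSK replicate 1 (0.0679) or OSK replicate 2 (0.122), and with library size alone (0.0837). GFP was lower than WT by -0.37 (adjusted p 0.00791), and GSTA4 against WT was -0.20 (adjusted p 0.105), called without WT replicate 3 (0.0406). Of the 100-base stretches of HSPA1A transcripts, 69.9% occur in another gene, as do 72.7% for HSPA1B, so reads of the pair may be split or lost. The gene AL671762.1 holds 30.5% of these stretches for HSPA1A and 33.9% for HSPA1B. It overlaps 36.5% of the exons of HSPA1B on the same strand, so a sum of the pair may not recover such reads. Summed, the pair averaged 105 ± 17.1 CPM in WT cells, 74.3 ± 10.04 with GFP, 81.4 ± 0.782 with GSTA4, and 112 ± 11 with OSK (SD, n = 3). The sum was higher in OSK than in GFP by 0.59 (edgeR adjusted p 7.85e-05) and lower in GFP than in WT by -0.50 (edgeR adjusted p 0.00157). OSK and WT were not told apart, at 0.09 (adjusted p 0.503).

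HSPA8 (chr11:123057489-123063230), which folds new proteins in unstressed cells, had 817, 795 and 787 CPM in WT cells, 748, 817 and 820.3 with GFP, 851, 877 and 892 with GSTA4, and 765, 727 and 757 with OSK. GSTA4 stood above every other library. HSPA8 was lower in OSK than in GSTA4 by -0.22 (SE 0.06, adjusted p 0.00297). Against GFP, GSTA4 differed by 0.13 (95% interval 0.02 to 0.25, adjusted p 0.081), which did not pass the threshold but did without WT replicate 1 (0.0451) and with DESeq2 (0.0389). Against WT, GSTA4 differed by 0.13 (adjusted p 0.0824) and passed without GFP replicate 1 (0.0399) and with DESeq2 (0.0484). OSK and GFP were not told apart, at -0.09 (95% interval -0.20 to 0.03), nor were OSK and WT, at -0.09. With library size alone in place of TMM both were called, at -0.16 against GFP (adjusted p 0.0126) and -0.16 against WT (0.0104).

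DNAJB1 (chr19:14514770-14529770) is the J-domain partner that hands substrates to HSP70. It had 166, 153 and 144 CPM in WT cells, 134, 149 and 151 with GFP, 167, 161 and 169 with GSTA4, and 149, 136 and 131 with OSK. All GSTA4 libraries lay above all GFP and all OSK libraries, and WT overlapped each of the other groups. The difference was 0.20 for GSTA4 against GFP (SE 0.07, adjusted p 0.0341) and -0.26 for OSK against GSTA4 (adjusted p 0.00342). The call against GFP was lost without GFP replicate 1 (adjusted p 0.156), GFP replicate 2 (0.052), GSTA4 replicate 1 (0.0851) or GSTA4 replicate 3 (0.102). OSK against WT was -0.15 (adjusted p 0.0681) and passed without WT replicate 3 (0.0366), GFP replicate 1 (0.0472) or OSK replicate 1 (0.0342), with library size alone (-0.22, 0.00827) and with a filter at a mean of 1 CPM (0.046).

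HSPH1 (chr13:31134974-31162388) encodes HSP110, a nucleotide exchange factor for HSP70. Its levels were 93.9, 82.1 and 83.0 CPM in WT cells, 79.0, 80.0 and 87.2 with GFP, 79.9, 80.4 and 73.3 with GSTA4, and 95.1, 88.8 and 89.2 with OSK. OSK was higher than GSTA4 in every library, by 0.23 (SE 0.07, adjusted p 0.0104). That call was lost without GSTA4 replicate 3 (adjusted p 0.0681) and with library size alone (0.0637). Against GFP the OSK libraries also lay above, but the difference of 0.15 did not pass the threshold (adjusted p 0.0841), except without WT replicate 1 (0.0454) or GFP replicate 3 (0.0412).

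HSP90AA1 (chr14:102080738-102139699) had 821, 783 and 778 CPM in WT cells, 772, 707 and 806 with GFP, 864, 862 and 827 with GSTA4, and 891, 928 and 933 with OSK. The groups were ordered GFP, WT, GSTA4 and OSK, and no pair of neighbours in that order was told apart by the test, though OSK and GSTA4 were when only their 6 libraries were fitted (0.11, adjusted p 0.0327). OSK was higher than GFP by 0.27 (SE 0.06, adjusted p 0.000905) and higher than WT by 0.21 (adjusted p 0.00683), at 0.14 and an adjusted p of 0.05 with library size alone. GSTA4 was higher than GFP by 0.16 (adjusted p 0.0481), close to the threshold. That call held in 5 of 21 alternatives. RLE scaling (adjusted p 0.0558), library size alone (0.0528), no filter (0.0535) and a filter at a mean of 1 CPM (0.0721) lost it. So did only the 6 libraries compared (0.082) and lines with no symbol kept (0.0637). The call was also lost without any 1 of the GSTA4 or OSK libraries, GFP replicate 1 or 2, or WT replicate 2 or 3. Adjusted p-values there ran from 0.0525 to 0.258, and the smallest difference, 0.10, was without GFP replicate 2.

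HSPD1 and HSPE1 encode the mitochondrial chaperonin HSP60 and its lid HSP10, from divergent genes on chromosome 2. RefSeq start 2 of HSPD1 lies 539 bases from the start of HSPE1, and start 1 of HSPD1 lies between them. The genes share 281 exon bases on opposite strands, 14.2% of the exons of HSPE1. HSPD1 (chr2:197486581-197516737) had 244, 251 and 253 CPM in WT cells, 241, 250.3 and 268 with GFP, 275, 304 and 294 with GSTA4, and 241, 264 and 276 with OSK. GSTA4 lay above WT and GFP in every library and overlapped OSK. HSPD1 was higher in GSTA4 than in GFP by 0.20 (SE 0.06, adjusted p 0.0214) and than in WT by 0.22 (adjusted p 0.00844). The first call was lost without GFP replicate 1 (adjusted p 0.0817), GFP replicate 2 (0.0747), GSTA4 replicate 2 (0.102) or GSTA4 replicate 3 (0.0652), and the second without GSTA4 replicate 2 (0.055). OSK was lower than GSTA4 by -0.16 (adjusted p 0.044), a call that held in 9 of 21 alternatives. It was lost without WT replicate 2 or 3, GFP replicate 2 or 3, GSTA4 replicate 2 or 3, or OSK replicate 1 or 2. The difference was -0.09 without OSK replicate 1 (adjusted p 0.308). RLE scaling (adjusted p 0.0657), DESeq2 (0.0576), no filter (0.113) and lines with no symbol kept (0.0816) also lost the call. Reads on mitochondrial genes averaged 6.02% in WT cells, 6.32% with GFP, 7.73% with GSTA4 and 6.85% with OSK, and the part of this share in the HSPD1 result was not tested.

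HSPE1 (chr2:197499994-197503457) had 15.8, 13.4 and 13.2 CPM in WT cells, 17.7, 16.3 and 14.9 with GFP, 14.2, 16.8 and 13.1 with GSTA4, and 16.1, 16.3 and 15.8 with OSK. No pair of groups was told apart, and in the test for any difference among the 4 groups HSPE1 was the only gene of the set not called (adjusted p 0.327), against 66.9% of all genes called. In that test 9 genes of the set were called, but 6 without GSTA4 replicate 2 or GSTA4 replicate 3, 7 without OSK replicate 2, and 8 without GSTA4 replicate 1, OSK replicate 1 or OSK replicate 3, with library size alone or with no filter. GSTA4 against GFP was -0.15 with a 95% interval from -0.40 to 0.10. This overlaps the interval of HSPD1 in the same comparison, 0.07 to 0.33, and a difference between HSPD1 and HSPE1 was not tested. HSPE1 has 26 pseudogene lines, which held 8.94% to 20.4% of the reads of HSPE1 and these lines together. Of the 100-base stretches of HSPE1, 17% occur in another gene.

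HSPB1 (chr7:76302544-76304295) encodes HSP27, a small heat shock protein that holds unfolded proteins without using ATP. It had 57.4, 86.4 and 95.5 CPM in WT cells, 90.6, 129 and 131 with GFP, 147, 143 and 130.1 with GSTA4, and 59.9, 65.0 and 77.5 with OSK. GSTA4 lay above WT and OSK in every library, and OSK lay below GFP. HSPB1 was lower in OSK than in GSTA4 by -1.05 (SE 0.15, adjusted p 4.19e-06), the largest difference of any of the 10 genes in the 6 comparisons. Against GFP, OSK was lower by -0.79 (SE 0.15, adjusted p 0.000155). GSTA4 was higher than WT by 0.81 (adjusted p 0.000136), and GFP was higher than WT by 0.55 (adjusted p 0.00966) although their libraries overlapped. The last value was 0.36 without WT replicate 1, and the call was lost without GFP replicate 2 (adjusted p 0.0569) or GFP replicate 3 (0.0517). GSTA4 against GFP was 0.26 (95% interval -0.03 to 0.56, adjusted p 0.181), and it was 0.11 without GFP replicate 1 (0.63). It passed the threshold without WT replicate 1 (adjusted p 0.0278), with no filter (0.00343) and with only the 6 libraries compared (0.0337). OSK against WT was -0.24 (adjusted p 0.197), and with 1 library left out it ran from -0.43 without WT replicate 1 (0.00151) to -0.09 without WT replicate 3 (0.692). With no filter it was called (0.0108).

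CRYAB (chr11:111908565-111923722) encodes alpha-B crystallin, a small heat shock protein of lens, muscle and RPE. It had 869, 1263 and 1292 CPM in WT cells, 1174, 1449 and 1476 with GFP, 867, 1019 and 1007 with GSTA4, and 702, 675 and 675 with OSK. Every OSK library lay below every other library, and every GSTA4 library lay below every GFP library. CRYAB was lower than in GFP by -0.9985 in OSK (95% interval -1.24 to -0.76, adjusted p 3.62e-07), which is 1.998-fold lower, and by -0.50 in GSTA4 (95% interval -0.74 to -0.27, adjusted p 0.00191). OSK was lower than GSTA4 by -0.50 (adjusted p 0.00105) and lower than WT by -0.74 (adjusted p 1.66e-05). CRYAB was called in these 4 comparisons under every alternative run. GFP against WT, at 0.26, did not pass (adjusted p 0.104), but did without WT replicate 3 (0.0405) or GFP replicate 1 (0.0368) and with no filter (0.00246), and it was 0.09 without WT replicate 1 (0.462). GSTA4 against WT, at -0.24, did not pass either (adjusted p 0.0943), but was -0.41 without WT replicate 1 (8.1e-05), -0.14 without WT replicate 3 (0.377) and called with no filter (0.000797). The exons of CRYAB overlap HSPB2 on the opposite strand over 20.6% of their length, and HSPB2 had 0 to 5 reads per library. The lens marker CRYAA was at 0 in all libraries.

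**Figure D3:**
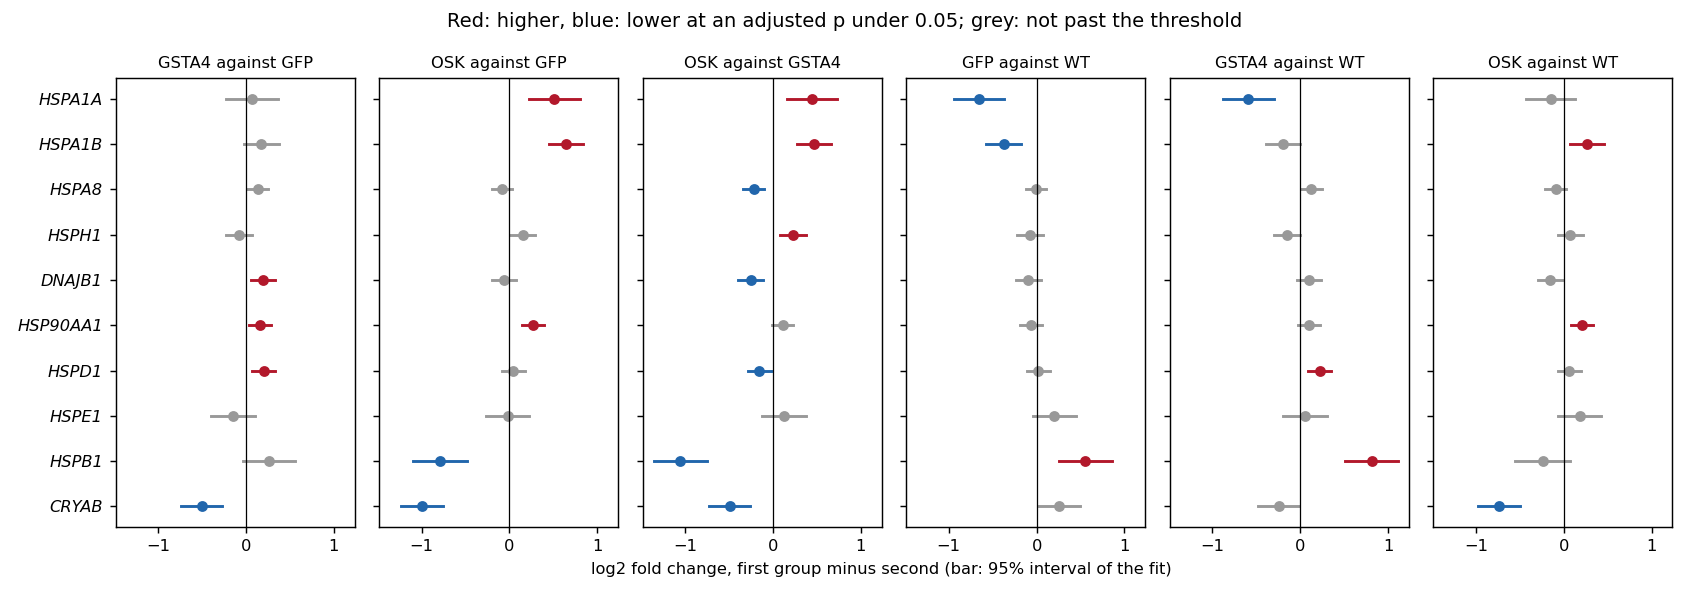
Log2 fold change of each chaperone gene in the comparisons, with 95% intervals from the edgeR fit. CRYAB and HSPB1 lie lowest in OSK against GFP and OSK against GSTA4, at -0.50 to -1.05, while HSPA1A and HSPA1B lie at 0.44 to 0.64.

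Counted by comparison, the 10 genes did not move as a block. In GSTA4 against GFP, 3 were higher (DNAJB1, HSP90AA1 and HSPD1) and 1 was lower (CRYAB), while 29.2% of all genes tested were called (14.7% higher and 14.6% lower). The median log2 fold change was 0.15 over the 10 genes and 0.01 over all genes. The count rests on single libraries. It fell to 1, CRYAB alone, without GFP replicate 1, GFP replicate 2 or GSTA4 replicate 3, and to 2 without GSTA4 replicate 1 or GSTA4 replicate 2, and it was 6 without WT replicate 1. Among these 10 genes, GSTA4 and GFP libraries did not overlap for 5, against 42.3% of all genes.

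In OSK against GFP, 3 genes were higher (HSPA1A, HSPA1B and HSP90AA1) and 2 were lower (HSPB1 and CRYAB), beside 45.9% of all genes called (23.1% higher and 22.8% lower). Libraries did not overlap for 6 of the 10, against 54.7% of all genes. With library size alone in place of TMM, 39.8% of all calls were higher in OSK, in place of 50.4%. All 5 calls held under every alternative run. The median was 0.01 over the 10 genes and -0.02 over all genes. In OSK against GSTA4, which compares the 2 lines directly, 3 were higher (HSPA1A, HSPA1B and HSPH1) and 5 were lower (HSPA8, HSPB1, DNAJB1, HSPD1 and CRYAB), beside 47.8% of all genes (24.1% higher and 23.8% lower). Libraries did not overlap for 8 of the 10, against 58% of all genes. With 10 genes, 4 called in the first comparison and 5 in the second are near these backgrounds and are no result about the set.

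Against WT, 3 of the 10 genes were called in each comparison. With 10 genes, counts of this size are no result about the set. GFP had 1 gene higher (HSPB1) and 2 lower (HSPA1A and HSPA1B), beside 22.2% of all genes (11% higher and 11.2% lower), and its libraries did not overlap WT for 2 of the 10 (34.6% of all genes). GSTA4 had 2 higher (HSPB1 and HSPD1) and 1 lower (HSPA1A), beside 38.6% of all genes (19.7% higher and 19% lower), with 6 of the 10 not overlapping (49% of all genes). OSK had 2 higher (HSPA1B and HSP90AA1) and 1 lower (CRYAB), beside 45.4% of all genes (22.7% higher and 22.7% lower), with 3 of the 10 not overlapping (53.5% of all genes). With library size alone in place of TMM, OSK against WT had 0 higher and 3 lower. These comparisons share the WT libraries with each other, and those against GFP share the GFP libraries. Of all reads on named lines, the 10 genes took 0.346 ± 0.0137% in WT cells, 0.365 ± 0.015% with GFP, 0.348 ± 0.0083% with GSTA4 and 0.293 ± 0.0018% with OSK (SD, n = 3). CRYAB alone held 21733 of the 56529 reads of the set in GFP replicate 3 and 9867 of 42742 in OSK replicate 1. The share therefore leans on CRYAB and does not describe the set as a whole.

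Markers of dividing cells moved between the same groups. The summed level of 8 such genes ran from 53.2 to 63.5 CPM in WT cells, 214 to 239 with GFP, 158 to 164 with GSTA4, and 452 to 554 with OSK. All 8 were higher in OSK than in GFP and higher in GFP than in WT. HSPB1, HSPA1A and HSPA1B were called in both of these comparisons, each in opposite directions. HSPA1A and HSPA1B were lower in GFP than in WT (-0.65 and -0.37) but higher in OSK than in GFP (0.51 and 0.64). HSPB1 was higher in GFP than in WT (0.55) and lower in OSK than in GFP (-0.79). CRYAB was called in OSK against GFP alone of the pair, where it was lower (-0.9985). The part of cell division in these results was not tested. The fibroblast markers, with 2 of 8 over 1 CPM and LUM at 0, summed to 765 to 786 CPM in WT cells, 706 to 775 with GFP, 528 to 557 with GSTA4, and 337 to 397 with OSK. PDGFRB carried most of these sums, at means of 650, 659, 539 and 342 CPM in the same order. COL1A1, the other marker over 1 CPM, had 122, 82.4, 4.53 and 20.9.

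Which genes varied together is described here by Pearson's r of log2(CPM + 0.5) over the 12 libraries. The libraries share group, scaling and depth, so no p is given. HSPA1A and HSPA1B had r = 0.79, HSPA1A and HSPH1 0.82, and HSPA8 and DNAJB1 0.88. HSPB1 and CRYAB had r = 0.57, and HSP90AA1 and CRYAB had r = -0.89. Taken as deviations from the group means, which leaves only the spread between libraries of a group, the values were 0.72, 0.91, 0.71, 0.79 and -0.42 in the same order. HSPD1 and HSPE1, partners in 1 protein machine, had r = -0.19 in each case.

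**Figure D4:**
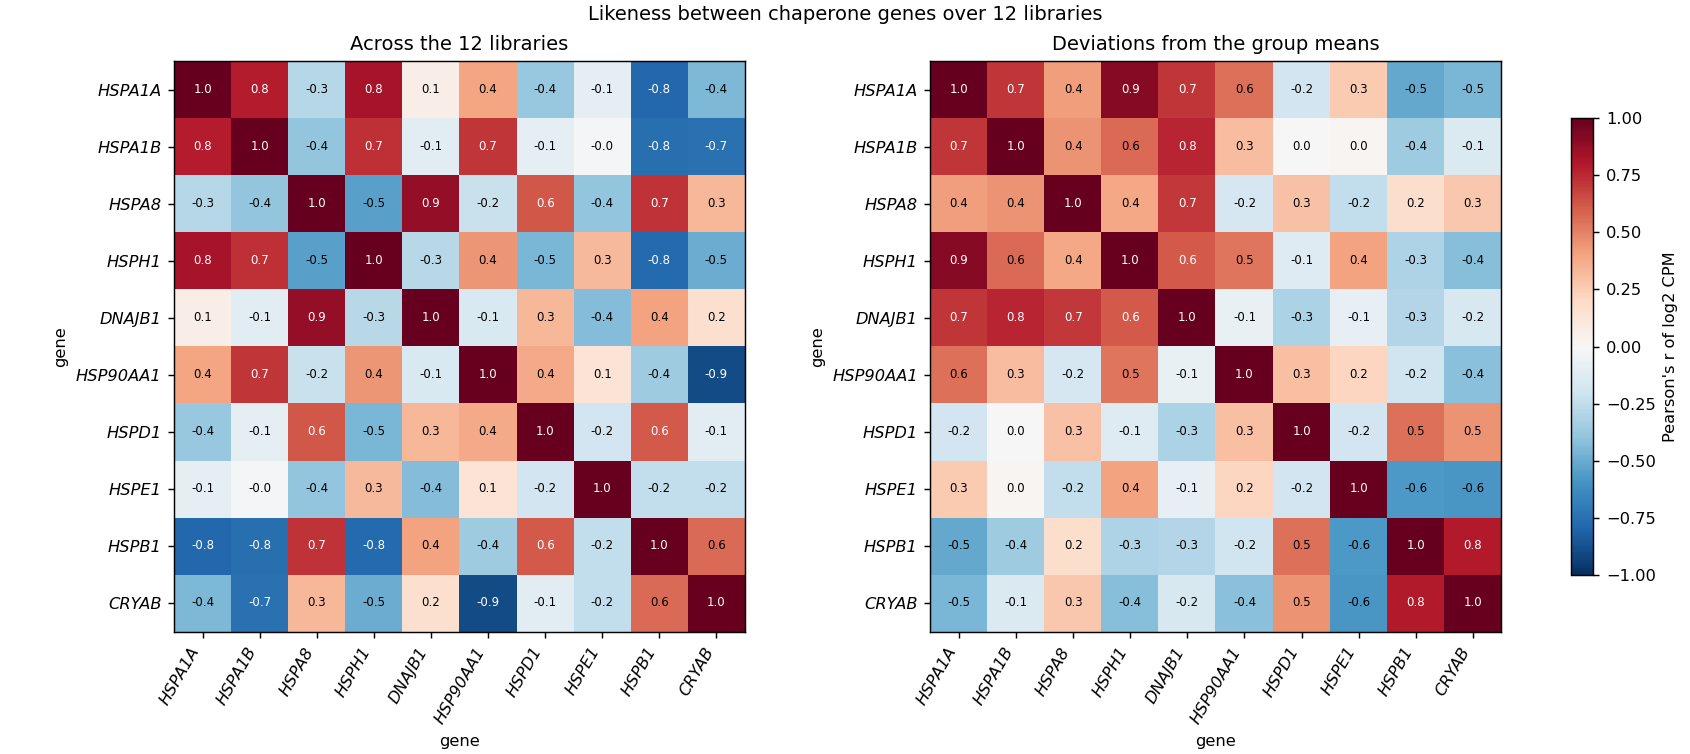
Pearson's r of log2 CPM between the chaperone genes, over the 12 libraries (left) and over deviations from the group means (right). HSPA1A and HSPH1 have the highest r on the right (0.91), and HSP90AA1 and CRYAB the lowest on the left (-0.89).

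Outside the set, the tested gene most like a member over the 12 libraries was found among 13686 candidates. TUBB, a beta-tubulin gene, was most like CRYAB (r = 0.980). For HSPA1A it was POR (0.968), for HSPB1 RPS23 (0.964) and for HSPA8 EBNA1BP2 (0.956). For HSP90AA1 it was A4GALT (0.949), for HSPH1 CARD8-AS1 (0.942), for HSPD1 RABL3 (0.940) and for HSPE1 TAF1A (0.835). These are the highest of many values and carry no test, and HSPE1 had the lowest of those given.

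The regulators and partners of the set were read from lists of related genes. Counts in these lists stand beside 14.7% of all genes higher and 14.6% lower in GSTA4 against GFP, and 23.1% higher and 22.8% lower in OSK against GFP. HSF1 itself was higher than in GFP in GSTA4 by 0.23 (SE 0.06, adjusted p 0.00878) and in OSK by 0.29 (adjusted p 0.00056). GFP had the lowest mean, and against WT neither GSTA4 (0.08, adjusted p 0.307) nor OSK (0.15, adjusted p 0.0502) was called. HSF2 was lower in OSK than in GFP by -0.32 (adjusted p 0.0297), as was HSBP1, an HSF1-binding protein, by -0.17 (adjusted p 0.039). Of 14 other tested genes known to rise in the heat shock response, 2 were higher and 1 lower in GSTA4 against GFP, and 4 were higher and 2 lower in OSK against GFP. These counts are near the shares of all genes called, 29.2% and 45.9%. HSPA4L, an HSP110 relative, was among the higher in both (0.57 and 0.33).

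Among HSP70 partners, BAG1, an exchange factor, was higher in OSK than in GFP by 1.51 (SE 0.06, adjusted p 3.68e-14), with 3 of 9 partners higher and 1 lower. In GSTA4 against GFP, 2 were higher and 1 lower. HSP90AB1 and HSP90 partners together had 3 of 14 higher and 1 lower in OSK against GFP, with the phosphatase PPP5C at 0.66 (adjusted p 4.6e-08). In GSTA4 against GFP, 1 was higher and 2 were lower. HSP90AB1 itself was not called in OSK (0.01, adjusted p 0.926) or in GSTA4 (0.07, adjusted p 0.407), each against GFP. Of the other small heat shock proteins 2 were tested, and HSPB8 was higher in GSTA4 by 0.26 (adjusted p 0.00287) and lower in OSK by -0.54 (adjusted p 5.3e-07), each against GFP.

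Mitochondrial chaperones and proteases other than HSPD1 and HSPE1 had 5 of 13 higher and 0 lower in GSTA4 against GFP. TRAP1, the mitochondrial HSP90, was at 0.40 (adjusted p 0.000196). In OSK against GFP, 5 were higher and 1 lower. Subunits of the cytosolic chaperonin TRiC and prefoldin had 4 of 14 higher and 0 lower in GSTA4 against GFP, CCT4 among them at 0.35 (adjusted p 0.000128), and 4 higher and 1 lower in OSK against GFP.

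The chaperones of the endoplasmic reticulum fold secreted proteins and answer to a separate stress pathway. In GSTA4 against GFP, 12 of 16 were lower and 0 higher, with a median of -0.27 against 0.01 over all genes. In OSK against GFP, 13 of 16 were higher and 1 lower, with a median of 0.47 against -0.02. HYOU1, an HSP70 relative of that compartment, was at -0.67 in GSTA4 (adjusted p 4.85e-08), and PDIA6, a disulfide isomerase, was at 0.92 in OSK (adjusted p 2.74e-10). HSPA5, the HSP70 of the compartment, was at -0.37 and 0.65, values chosen for print after they were seen. SERPINH1, the collagen chaperone, was lower in OSK by -0.42 (adjusted p 0.00334).

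**Figure D5:**
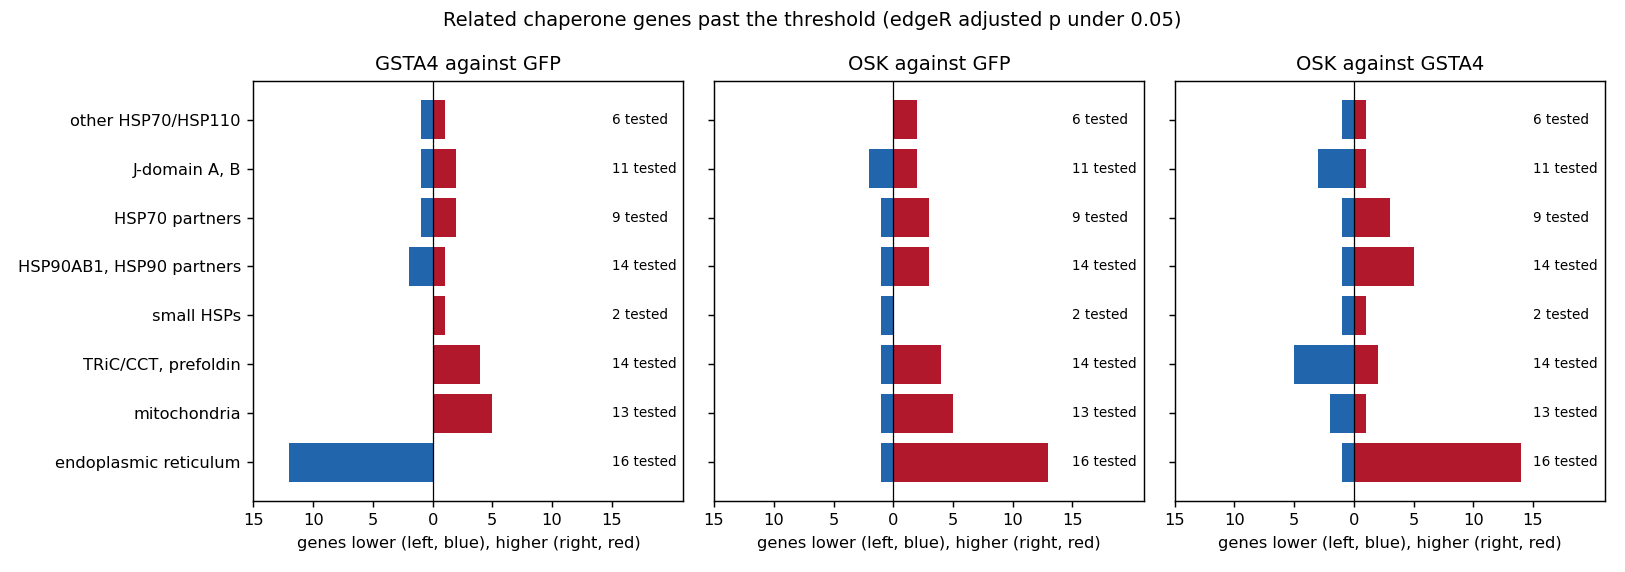
Number of related chaperone genes called higher (right, red) and lower (left, blue) in each list, in 3 comparisons, with the number tested beside each bar. The endoplasmic reticulum list has 12 lower in GSTA4 against GFP and 13 higher in OSK against GFP.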

How the data were processed

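RNA of 12 ARPE-19 libraries was sequenced, 3 per group. The authors deposited 1 table of raw read counts per gene. The submitters' processing notes name STAR 2.7.1a, featureCounts 1.6.2 and the builds GRCh38, hg38, GRCm38 and mm10, with no role or order. Annotation release, strand setting and treatment of multi-mapping reads are not given in the sources used here, so overlapping and near-identical genes may share reads. Lines with no symbol, 0.485% to 0.822% of reads, were left out.

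The counts were filtered with filterByExpr, scaled with TMM and fitted with edgeR 4.0.16 (R 4.3.3, limma 3.58.1), a mean per group over all 12 libraries, with 8 residual degrees of freedom. Benjamini-Hochberg adjustment ran over 15179 genes at a threshold of 0.05. Alternatives were RLE scaling, library size alone, other filters, DESeq2 1.42.0, a replicate block, each library left out, only the libraries compared, the HSPA1 pair summed and lines with no symbol kept. On data simulated for GSTA4 against GFP over 15179 genes, the test recovered 50% of 62 genes changed by 0.5 on the log2 scale. It recovered 78.5% of 65 genes changed by 1 and 86.3% of 73 changed by 2, with 8 false calls. In the real data 4439 genes were called in this comparison. The simulation changed far fewer genes, which makes the Benjamini-Hochberg adjustment stricter there. The shares are also not split by abundance, so they do not give the recovery for the chaperone genes.

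Positions and exon lengths come from GENCODE v29 and upstream sequences from RefSeq. The genes, the lists of related genes and the tests were chosen with earlier results of these data known. Named beside the 10 genes are, per list, up to 3 genes with the lowest adjusted p against GFP, a selection of which is printed, and the gene most like a member, of which some are not reported here. Counting error alone limits a gene with no reads to 3 reads per library.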

Additional observations from a re-analysis of the deposited data

How the results depend on the processing

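The 5 calls of OSK against GFP kept their direction and call under every alternative run. The count of GSTA4 against GFP, 4 genes, ranged from 1 to 6 when single libraries were left out. With library size alone in place of TMM, OSK against WT had 0 higher and 3 lower in place of 2 and 1, and 39.8% of all calls against GFP were higher in OSK in place of 50.4%, and 42.5% in place of 50.3% against GSTA4. Differences near 0 changed sign. With library size alone, HSPD1 was at -0.0306 in OSK against GFP and -0.0051 in OSK against WT, and with a mean of at least 1 CPM HSPA8 was at 0.0046 in GFP against WT. With single libraries left out, HSPA8 in GFP against WT ran from -0.0290 to 0.0339, HSPA1A in OSK against WT from -0.259 to 0.0595, HSPE1 in OSK against GFP from -0.0758 to 0.0420, HSPA1A in GSTA4 against GFP from -0.0373 to 0.212, HSPD1 in GFP against WT from -0.0198 to 0.0538 and HSPE1 in GSTA4 against WT from -0.0471 to 0.141. None of these was called, and the cause was not tested.

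The groups share replicate numbers. Over 18 pairs of same-numbered libraries, correlations of deviations ran from -0.02 to 0.17, with 3 over 0.1. Of the 12 libraries, 8 correlated best with their own number. These values do not settle whether the numbers pair the samples, and the main fit used no pairing. With a replicate block, 5 genes were called in GSTA4 against GFP, 5 in the OSK line against GFP, 8 in the OSK line against GSTA4, 4 in GFP against WT, 4 in GSTA4 against WT and 3 in OSK against WT. HSPB1 was added in GSTA4 against GFP (0.29, adjusted p 0.0381), and CRYAB in GFP against WT (0.27, 0.0155) and GSTA4 against WT (-0.23, 0.0232).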
